A study of Homo sapiens with 12 samples.

Results

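The urokinase plasminogen activator system was followed through 6 genes, PLAU, PLAT, PLAUR, SERPINE2, SERPINB2 and ANXA2, which were taken by symbol from the 23368 genes of the deposited count table. MDA-MB-231 cells, an established estrogen receptor negative basal breast cancer line, and T47D cells, an established estrogen receptor positive luminal A line, were encapsulated in 6 wt. % poly(ethylene glycol) hydrogels. Each matrix carried 2 mM of a single adhesive peptide, either GFOGER, which mimics collagen, or IKVAV, which mimics laminin. RNA was taken on day 3 from gels degraded with collagenase, and each replicate pooled 3 gels. Counts were analysed for 3 libraries of MDA-MB-231 with GFOGER, 2 of MDA-MB-231 with IKVAV and 3 of T47D with each peptide, and the remaining MDA-MB-231 replicate with IKVAV was not analysed here. All 4 groups shared the polymer concentration, the peptide concentration and the culture time, and each subtype was represented by 1 cell line. Nothing in the labels names separate cultures for the replicates, so the p-values measure only the spread between these libraries, which may be technical.

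The system turns the circulating zymogen plasminogen into plasmin, a broad serine protease that cuts fibrin and other matrix proteins and activates several growth factors and metalloproteinases. Urokinase (PLAU) does so mostly at the cell surface, where its receptor uPAR (PLAUR) holds it, while tissue plasminogen activator (PLAT) works best on fibrin and at annexin A2. Serpins inhibit the activators by a suicide reaction, after which the complexes are cleared through LRP1. High urokinase is a long known marker of poor outcome in breast cancer.

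Each library had 14338238 to 18452145 counted reads, and levels are given as CPM, counts scaled to a common library size after adjustment by the trimmed mean of M-values (TMM). The libraries carried the genes of their labelled lines: VIM, the mesenchymal filament protein, was 422-fold higher in MDA-MB-231, and CDH1, the epithelial cadherin, and ESR1, the estrogen receptor, were 300.4-fold and 456-fold higher in T47D. In these bulk libraries fewer cells of a kind and less RNA per cell cannot be told apart.

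In MDA-MB-231, both plasminogen activators and the intracellular serpin SERPINB2 were over 2-fold higher with GFOGER than with IKVAV. PLAU was 3.3-fold higher, PLAT 2.16-fold and SERPINB2 8.60-fold, while ANXA2 was 1.52-fold higher. PLAUR and SERPINE2 did not pass the test, with log2 fold changes of 0.23 and -0.21. By the quasi-likelihood test of edgeR with p-values adjusted by Benjamini-Hochberg, 3 of the 6 members passed an adjusted p of 0.05 with a change over 2-fold, against 9.57% of the 14092 genes tested. All 3 were higher with GFOGER, a direction that 3.12% of the genes tested took past the same threshold. At any fold, 4 of the 6 passed, against 42.9% of the genes. The members had a median log2 fold change of 0.85, and the genes tested one of 0.00. The libraries of the 2 peptides did not overlap for 6 of 6 members, against 63.2% of the genes tested. The members were chosen with earlier results of these data known, so these counts describe them and do not test the system as a whole.

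**Figure D1:**
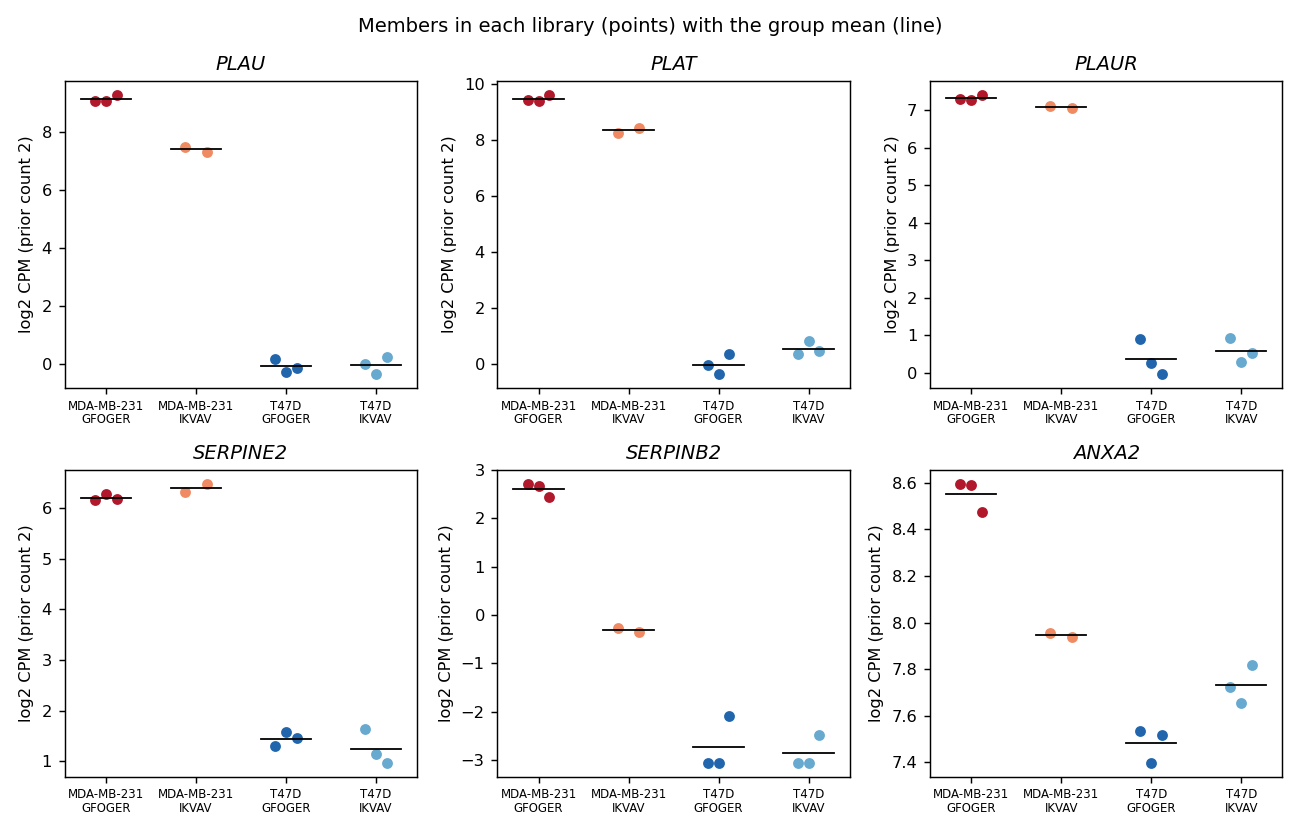
Level of each member in every library as log2 CPM with a prior count of 2 (vertical axis, own scale in each panel) in the 4 groups (horizontal axis), with points for libraries and lines for group means. In MDA-MB-231 the libraries of the peptides do not overlap for any member, with the widest gaps for SERPINB2, PLAU and PLAT. ANXA2 is the member that differs least between the lines.

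PLAU encodes urokinase, the activator that binds uPAR, and spans chr10:75670862-75677258 in hg19. Its reads numbered 9341, 8715 and 10919 in the MDA-MB-231 libraries with GFOGER, and 2788 and 2648 with IKVAV. Every GFOGER library thus held over 3 times the reads of either IKVAV library. The means were 565 ± 49.6 CPM (SD, n = 3) and 170 ± 14.9 CPM (SD, n = 2), a log2 fold change of 1.72 (SE 0.098, 95% confidence interval 1.52 to 1.93, adjusted p = 1.309e-09). This was the 153rd largest increase among the 14092 genes. In the count table's coordinates PLAU, on the plus strand, lies inside the span of C10orf55, a minus-strand lncRNA gene with 0 to 141 counts per library. In the GENCODE annotation PLAU begins at 75668935, outside C10orf55, which spans 75669727 to 75682535. C10orf55 was higher with GFOGER as well, by 1.31 on the log2 scale (SE 0.23, adjusted p = 2.26e-04), from 109 to 141 reads against 44 and 47. The strand option of the counting is not given in the sources used here, and without strand the reads of these overlapping genes cannot be told apart.

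PLAT encodes tissue plasminogen activator and spans chr8:42032236-42065194. It had 11936, 10815 and 13726 reads with GFOGER, and 4756 and 5759 with IKVAV in MDA-MB-231. The groups stood well apart, and replicate 3 with GFOGER was the highest library, as for PLAU. The means of 711 ± 62.0 and 328 ± 27.6 CPM (SD, n = 3 and 2) gave a log2 fold change of 1.11 (SE 0.093, adjusted p = 1.115e-07). Its 95% confidence interval, 0.91 to 1.30, held the 2-fold line, and with that threshold inside the test the adjusted p was 0.693.

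PLAUR, the gene for the glycolipid-anchored receptor of urokinase, spans chr19:44150247-44174498. It had 2735, 2512 and 2979 reads with GFOGER, and 2133 and 2215 with IKVAV. The groups did not overlap, yet the gap was small beside that of its ligand: 160 ± 8.07 against 136 ± 3.32 CPM (SD, n = 3 and 2). The log2 fold change of 0.23 (SE 0.091) had an adjusted p of 0.0507, with a 95% confidence interval from 0.04 to 0.42. Without GFOGER replicate 3 the change was 0.20 with an adjusted p of 0.00179. With every library kept, the adjusted p was 0.049 with DESeq2 and 0.00846 with voom, so the call turned on the tool as well.

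The ratio of ligand to receptor transcripts separated the peptides in MDA-MB-231. On a per-length scale (CPM per kb of the table's gene length), the ratio of PLAU to PLAUR was 2.55, 2.59 and 2.73 in the GFOGER libraries, and 0.975 and 0.892 with IKVAV. PLAT and PLAU stayed closer to each other, with PLAT at 1.05 to 1.08 times the level of PLAU with GFOGER, and 1.45 and 1.84 times with IKVAV. These ratios are of transcripts, and no protein was measured.

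**Figure D2:**
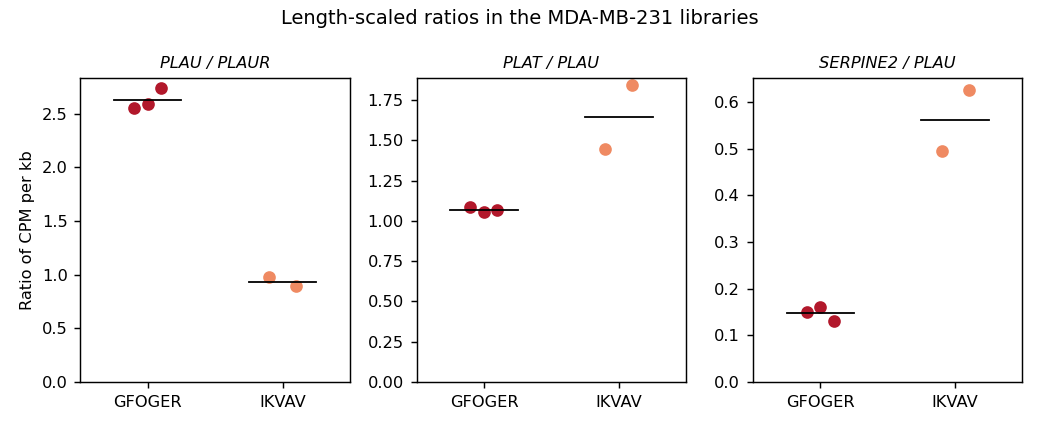
Ratios of length-scaled levels (CPM per kb over CPM per kb, vertical axis from 0) in the 5 MDA-MB-231 libraries by peptide, with points for libraries and lines for means. PLAU stands at over 2.5 times PLAUR with GFOGER and under 1 with IKVAV, and the inhibitor SERPINE2 stands lower relative to PLAU with GFOGER.

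SERPINE2, which encodes the secreted protease nexin 1, an inhibitor of thrombin, urokinase and plasmin, spans chr2:224839765-224904036. It had 1256, 1254 and 1270 reads with GFOGER, and 1237 and 1484 with IKVAV. Scaled to CPM the groups separated narrowly, at 71.8 to 77.5 against 80.2 and 89.5, lower with GFOGER. The log2 fold change was -0.21 (SE 0.10, adjusted p = 0.119). Without GFOGER replicate 3 it was -0.19 with an adjusted p of 0.0212. Relative to PLAU, SERPINE2 stood at 0.130 to 0.161 per length with GFOGER, and at 0.495 and 0.626 with IKVAV.

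SERPINB2 encodes PAI-2, a mostly intracellular clade B serpin that inhibits urokinase, and spans chr18:61554939-61571124. Its reads were few: 113, 101 and 93 with GFOGER, and 11 in each of the 2 IKVAV libraries. All GFOGER libraries were far above the IKVAV libraries. The values within a peptide lay close together, but at 11 reads counting error alone is larger than the SD between the IKVAV libraries. The means of 5.998 ± 0.617 and 0.688 ± 0.0351 CPM (SD, n = 3 and 2) gave a log2 fold change of 3.10 (SE 0.31, 95% confidence interval 2.45 to 3.76, adjusted p = 8.631e-07). This was the 37th largest increase of the 14092 genes tested. Per length, SERPINB2 nevertheless remained the lowest of the members, at 2.77 CPM per kb with GFOGER.

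**Figure D3:**
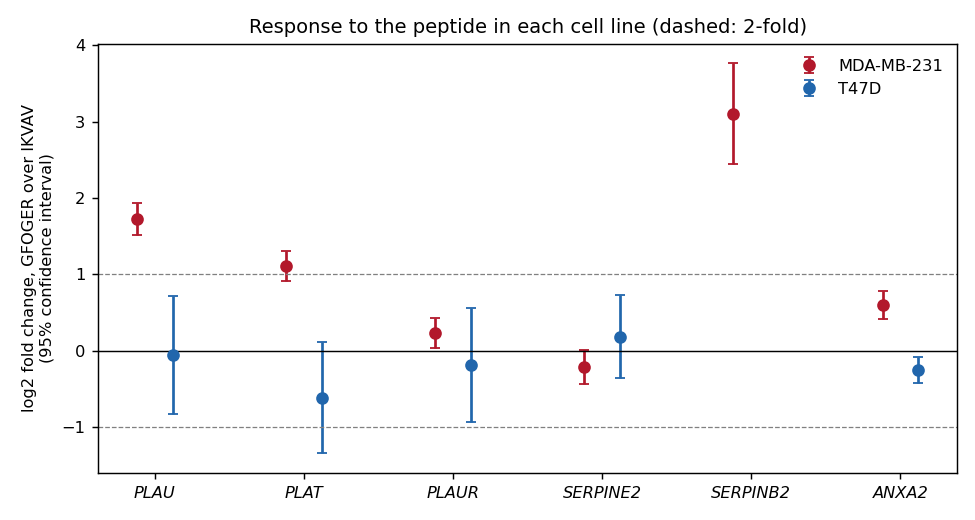
Log2 fold change of GFOGER over IKVAV with its 95% confidence interval (vertical axis) for the members (horizontal axis) in MDA-MB-231 (red) and T47D (blue), with dashed lines at 2-fold. In MDA-MB-231, PLAU at 1.72 and SERPINB2 at 3.10 lie clear of the 2-fold line, every interval for T47D except that of ANXA2 includes 0, and SERPINB2 was not tested in T47D.

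ANXA2 encodes annexin A2, a calcium-dependent membrane protein that, with S100A10, binds plasminogen and tissue plasminogen activator at the cell surface, and spans chr15:60639350-60690185. It had 6767, 6238 and 6242 reads with GFOGER, and 3831 and 4067 with IKVAV in MDA-MB-231. The groups stood apart, at 376 ± 17.6 and 247 ± 2.18 CPM (SD, n = 3 and 2). The log2 fold change was 0.60 (SE 0.087, adjusted p = 4.405e-05).

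The counts of ANXA2 are uncertain, since stretches of read length occur unchanged in its pseudogenes and above all in ANXA2P2. How reads were divided among the copies was not tested. ANXA2P2, a processed pseudogene on chromosome 9, has 1020 bases and differs from the 1020 coding bases of ANXA2 at 16 positions, an identity of 98.4%. Of the 970 stretches of 51 bases, the read length, in that coding sequence, 568 (58.6%) occur unchanged in ANXA2P2, 69 in ANXA2P1 and 6 in ANXA2P3. A stretch of 51 bases with a single difference is shown to make this plain, in GRCh37 coordinates from the GENCODE annotation, with the differing base in capitals (T41C, counted from the 5′ end).
ANXA2, chr15:60674589-60674639, minus strand: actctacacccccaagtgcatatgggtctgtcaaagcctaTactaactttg
ANXA2P2, chr9:33624321-33624371, plus strand: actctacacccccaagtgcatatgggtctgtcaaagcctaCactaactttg
A read from this stretch is told apart by that single base. In every library ANXA2P2 was credited with more reads than ANXA2 itself, between 143% and 169% of its count, ANXA2P3 with 8.15% to 11.03% and ANXA2P1 with 5.94% to 7.48%. ANXA2 held 35.1% to 38.8% of the reads of the 4 genes, a nearly constant share. Summed over the 4 genes, the log2 fold change in MDA-MB-231 was 0.58 (SE 0.085, adjusted p = 4.607e-05), close to that of ANXA2 alone.

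**Figure D4:**
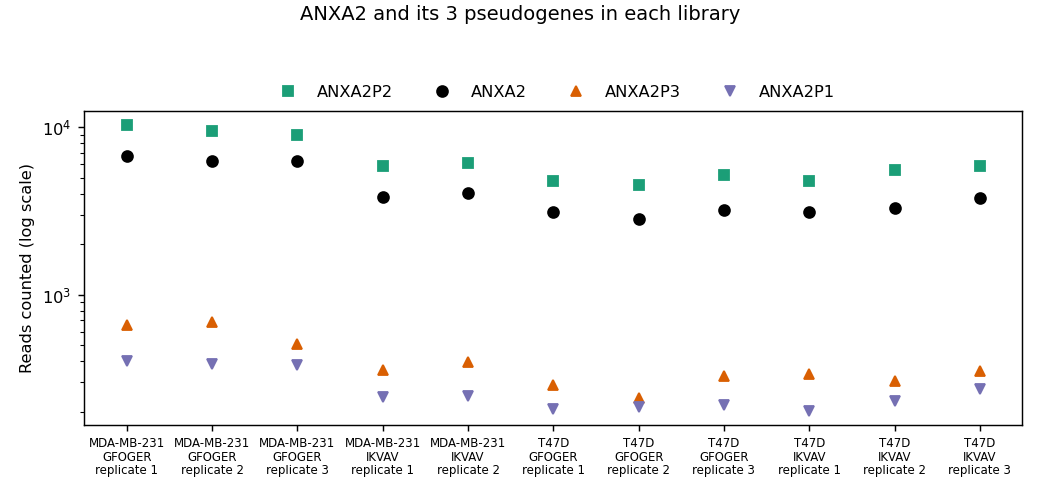
Reads counted on ANXA2 and its pseudogenes ANXA2P1, ANXA2P2 and ANXA2P3 (vertical axis, log scale) in each of the 11 libraries (horizontal axis). ANXA2P2 lies above ANXA2 in 11 of 11 libraries, and each of the 4 genes is higher in every MDA-MB-231 library with GFOGER than in either with IKVAV.

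The order of the members by length-scaled level, with ANXA2 at its own count, changed with the peptide in MDA-MB-231. With GFOGER, the spreads between libraries (SD, n = 3) of PLAT (224 ± 19.6 CPM per kb), PLAU (210 ± 18.4) and ANXA2 (207 ± 9.72) overlapped. Within each GFOGER library, PLAT was slightly above PLAU, at 1.05 to 1.08 times its level. PLAUR (79.9 ± 4.02), SERPINE2 (30.65 ± 1.30) and SERPINB2 followed. With IKVAV, ANXA2 led at 136 ± 1.20 CPM per kb (SD, n = 2), then PLAT at 103 ± 8.69. PLAUR (67.7 ± 1.65) and PLAU (63.3 ± 5.53) followed with overlapping libraries, then SERPINE2 (35.2 ± 2.73) and SERPINB2 (0.318 ± 0.0162). PLAU thus stood beside PLAT with GFOGER and beside its receptor with IKVAV. With the reads of its 3 pseudogenes added, at the length of ANXA2, ANXA2 would be first with both peptides, at 505 to 573 and 362 to 369 CPM per kb.

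Promoters of SERPINB2, PLAU and ANXA2, members that rose, are shown with that of PLAUR, which did not pass the test. Each is the 250 bases before the RefSeq transcript start in GRCh38.p14, a newer build than the hg19 of the count table. Windows matched 5 of the 6 members, all but PLAT, with a pair each for PLAU and SERPINE2, and the downstream PLAU start is printed. Capitals mark matches on either strand to the AP-1 motif TGANTCA, the GC box GGGCGG, the TATA box TATAAA and the TEAD motif GGAATG.
SERPINB2, chr18:63887455-63887704, plus strand: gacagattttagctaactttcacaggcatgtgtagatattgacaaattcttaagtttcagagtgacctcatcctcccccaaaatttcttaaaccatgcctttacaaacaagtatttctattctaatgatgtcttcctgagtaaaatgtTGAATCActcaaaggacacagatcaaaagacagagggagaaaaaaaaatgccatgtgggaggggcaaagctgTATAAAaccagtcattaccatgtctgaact
PLAU, chr10:73910882-73911131, plus strand: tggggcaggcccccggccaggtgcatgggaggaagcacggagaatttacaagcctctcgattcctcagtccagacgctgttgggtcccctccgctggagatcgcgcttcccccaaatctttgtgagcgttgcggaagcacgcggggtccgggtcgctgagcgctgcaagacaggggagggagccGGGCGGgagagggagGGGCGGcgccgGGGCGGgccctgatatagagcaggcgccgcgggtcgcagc
ANXA2, chr15:60397987-60398236, minus strand: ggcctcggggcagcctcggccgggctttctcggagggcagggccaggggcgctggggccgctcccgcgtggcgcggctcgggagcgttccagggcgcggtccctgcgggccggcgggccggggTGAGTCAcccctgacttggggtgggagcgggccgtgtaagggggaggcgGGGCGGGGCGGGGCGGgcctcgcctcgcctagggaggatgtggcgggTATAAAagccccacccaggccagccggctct
PLAUR, chr19:43670170-43670419, minus strand: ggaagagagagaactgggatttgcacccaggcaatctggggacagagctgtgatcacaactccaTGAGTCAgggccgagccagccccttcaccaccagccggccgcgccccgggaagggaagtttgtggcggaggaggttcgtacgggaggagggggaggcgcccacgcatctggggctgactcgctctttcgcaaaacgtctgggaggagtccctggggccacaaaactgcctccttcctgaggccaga
The SERPINB2 window held the AP-1 motif from -102 and a TATA box from -30, counted from the start. The ANXA2 window held the AP-1 motif from -127, a TATA box from -31 and 3 overlapping GC boxes. The downstream PLAU window held 3 GC boxes, and the PLAUR window the AP-1 motif from -186. Of the 7 windows of members, 3 held the AP-1 motif, against 6.57% of all 35116 promoters of the same length. The GC box was in 4 of 7 against 42.6%, the TATA box in 2 against 10.7%, and the TEAD motif in 0 against 11.9%. The AP-1 letters were in the window of PLAUR and in neither window of PLAU. Bases further upstream were not searched, and a link between these motifs and the response to the peptide was not tested. A match describes letters in these windows and is not a measured binding site.

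In T47D, no member passed the test between the peptides. PLAU, PLAT and PLAUR had 11 to 29 reads per library, and ANXA2, with 2833 to 3795, was the only abundant member. By edgeR's quasi-likelihood test, 0 of the 5 members tested passed the adjusted p of 0.05, either over 2-fold, against 0.0220% of the 13642 genes tested, or at any fold, against 0.0440%. At an unadjusted p under 0.05 there was 1, ANXA2, and with voom again 0 passed the adjusted p. DESeq2 gave an adjusted p for ANXA2 alone, which did not pass. SERPINB2, with 3 reads in all 6 libraries together, fell below the filter and was not tested.

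ANXA2 had 3096, 2833 and 3217 reads in T47D with GFOGER, and 3116, 3306 and 3795 with IKVAV. In CPM the groups did not overlap, at 179 ± 9.06 and 213 ± 11.9 (SD, n = 3 each), lower with GFOGER and so opposite in direction to MDA-MB-231. The log2 fold change of -0.25 (SE 0.077) had an adjusted p of 0.281. PLAT had 14, 11 and 20 reads with GFOGER, and 17, 27 and 21 with IKVAV, a log2 fold change of -0.62 (SE 0.34, adjusted p = 0.515). Its groups separated in CPM by less than the worth of 1 read. In all, 2 of the 5 members tested did not overlap, against 16.0% of the genes.

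PLAU had 17, 12 and 14 reads with GFOGER in T47D, and 13, 11 and 18 with IKVAV. PLAUR had 29, 18 and 15 against 26, 18 and 22, and SERPINE2 had 39, 48 and 46 against 44, 34 and 31. The groups overlapped for all 3. Their log2 fold changes were -0.05 (95% confidence interval -0.82 to 0.72), -0.18 (-0.93 to 0.56) and 0.19 (-0.36 to 0.74). At these counts the interval of PLAU spans more than 1 on the log2 scale from end to end. SERPINB2 had 0, 0 and 2 reads with GFOGER, and 0, 0 and 1 with IKVAV. A count of 0 allows up to 0.2035 CPM in these libraries, for counting error only.

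Between the lines, all members were higher in MDA-MB-231, and the activators by the most. With the 2 peptides of each line averaged, PLAT was 439-fold higher, PLAU 358-fold, PLAUR 113-fold and SERPINE2 32.4-fold (log2 fold changes of 8.78, 8.48, 6.83 and 5.02, with standard errors of 0.10 to 0.11). ANXA2 was 1.56-fold higher, a log2 fold change of 0.64 (SE 0.056, adjusted p = 1.32e-09). Of the 6 members, 5 passed over 2-fold, against 46.3% of the 15320 genes tested, and 6 at any fold, against 84.5%. Of these, SERPINB2 passed the filter only through its MDA-MB-231 libraries, so its call as higher there adds no support. With at least 10 counts required in every library it was not tested, and 4 members passed over 2-fold, against 4091 of 11775 genes. For SERPINB2, 329 reads in the 5 MDA-MB-231 libraries stood against 3 in the 6 of T47D, with none in 4 of them. This is a ratio of 130-fold at equal depth, with a counting interval of 44.2 to 636, and it weights the 3 GFOGER and 2 IKVAV libraries of MDA-MB-231 by their reads. The fitted log2 fold change with the peptides averaged was 5.81 and depends on the prior count. It was 7.12 without T47D GFOGER replicate 3 and 6.76 without T47D IKVAV replicate 3, the libraries that held the 3 reads. VIM was 422-fold lower in T47D than in MDA-MB-231, so PLAU and PLAT were there at about the same fraction of their MDA-MB-231 level as this mesenchymal marker. Other genes had other fractions: PLAUR and SERPINE2 differed by less. MAP7D3 differed by more, 9.90 on the log2 scale, with 1 to 2 reads per T47D library. Whether such low counts came from T47D cells or as traces of the other line was not tested.

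The response to the peptide was then compared between the lines within a single fit of all 11 libraries. It differed for PLAU, by 1.79 on the log2 scale (SE 0.31, adjusted p = 4.652e-04), for PLAT, by 1.73 (SE 0.28, adjusted p = 2.596e-04), and for ANXA2, by 0.86 (SE 0.11, adjusted p = 2.968e-05). For each of these the change with GFOGER was the more positive in MDA-MB-231. Over 2-fold, 2 of the 6 members passed, against 6.42% of the 15320 genes, and 3 at any fold, against 21.0%. PLAUR (0.42, 95% confidence interval -0.18 to 1.02) and SERPINE2 (-0.39, -0.87 to 0.08) did not pass. SERPINB2, with 3 reads in T47D, did not pass (adjusted p = 0.486), and its response there could not be measured at this depth. The T47D values behind PLAU and PLAT rest on 11 to 27 reads per library.

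Beyond the members, 62 genes of the pathway and its neighbours were taken from 8 lists written from general knowledge, with earlier results of these data known. In MDA-MB-231, 49 of them were tested, of which 20 were higher and 12 lower with GFOGER at any fold, and 6 and 5 over 2-fold, against 42.9% and 9.57% of all genes tested in either direction. They had a median log2 fold change of 0.06 against 0.00 for all genes tested. In T47D, 0 of the 39 tested passed with edgeR, 0 of the 32 given an adjusted p with DESeq2 and 5 with voom, and 8 had an unadjusted p under 0.05 with edgeR. The gene of plasminogen itself (PLG) had 0 reads in 11 of 11 libraries, which allows up to 0.2035 CPM, so its transcript was not detectable at this depth. The culture medium held fetal bovine serum, and plasminogen protein from serum or cells was not measured.

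**Figure D5:**
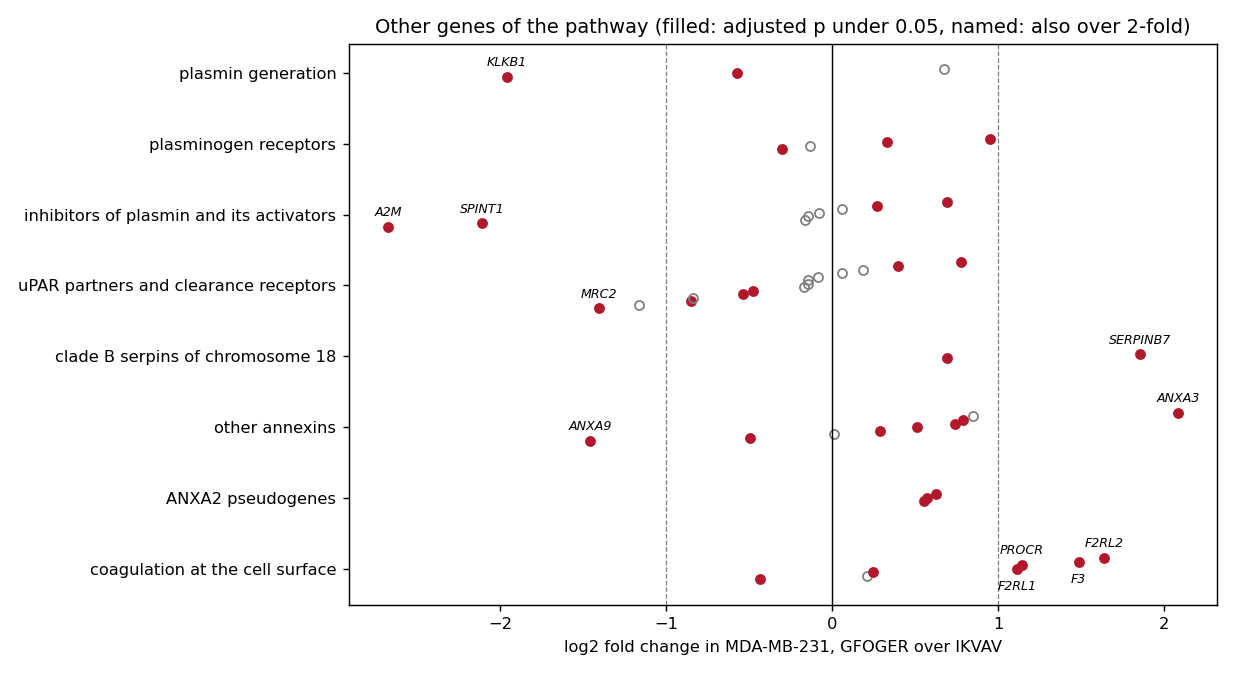
Log2 fold change of GFOGER over IKVAV in MDA-MB-231 (horizontal axis) for the tested genes of each list (vertical axis), filled where the adjusted p is under 0.05 and named where the change is also over 2-fold. ANXA3, SERPINB7 and 4 genes of cell-surface coagulation lie above 1, and A2M, SPINT1, KLKB1, ANXA9 and MRC2 below -1.

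Among the other inhibitors of plasmin and its activators, 8 of 10 were tested, and 2 rose and 2 fell, close to the 42.9% of all genes tested. SERPINB8, a clade B serpin, rose by 0.69 on the log2 scale, and TFPI2, a Kunitz inhibitor that binds plasmin, by 0.27 (SE 0.091, adjusted p = 0.0249). SPINT1, a Kunitz inhibitor of matriptase and HGF activator, fell by 2.11, from 98.4 to 22.9 CPM, and A2M, the broad protease trap, fell by 2.67 on 1 to 4 reads with GFOGER against 16 and 17 with IKVAV.

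Among genes that generate plasmin or activate urokinase, 3 of 6 were tested, of which 0 rose and 2 fell, against 42.9% of all genes tested in either direction. KLKB1, plasma prekallikrein, fell by 1.96 on the log2 scale with 3 to 7 reads against 15 and 22, and ST14, matriptase, fell by 0.57 (SE 0.18, adjusted p = 0.0185). Of the 4 other plasminogen receptors 3 passed, against the same 42.9%: S100A10, the partner of annexin A2, rose by 0.33 (SE 0.091, adjusted p = 0.00785) and PLGRKT by 0.95, while ENO1 fell by 0.31.

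Of the 14 partners and clearance receptors of uPAR, 2 rose and 4 fell, a share like the 42.9% of all genes tested. EGFR, a receptor through which uPAR signals, rose by 0.78 on the log2 scale. LRP1, the endocytic receptor that clears inhibited urokinase, fell by 0.48 (SE 0.10, adjusted p = 0.00113), from 366 ± 27.1 to 264 ± 33.8 CPM (SD, n = 2 and 3). MRC2, which encodes uPARAP/Endo180, a collagen receptor found in complex with uPAR, fell by 1.41, ITGB3 by 0.85 and IGF2R by 0.54.

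The list of cell-surface coagulation had 5 of 7 genes higher and 1 lower, against 42.9% of all genes tested in either direction, with a median log2 fold change of 1.12. F3, tissue factor, rose by 1.48 (SE 0.092, adjusted p = 3.704e-09), from 145 ± 3.92 to 408 ± 22.2 CPM (SD, n = 2 and 3). The protease-activated receptors F2RL2 and F2RL1 rose by 1.64 and 1.12, and PROCR, the endothelial protein C receptor, by 1.14. Of the other annexins, 5 rose and 2 fell of 9 tested, against the same 42.9%, led by ANXA3, which rose by 2.08, and ANXA9, which fell by 1.46, while ANXA6 and ANXA1 rose by 0.79 and 0.74. Of the 9 other clade B serpins near SERPINB2 on chromosome 18, 7 were too low to test, SERPINB7 rose by 1.85 on 16 to 31 against 5 and 6 reads, and SERPINB8, counted above as well, rose.

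The genes most like each member were those with the smallest root mean square difference between the 4 condition means of log2 CPM, each gene centred on its own mean. AXL, a receptor tyrosine kinase, was nearest to PLAU (0.111), then NAV3 and MAP7D3. EPHA2 (0.0330), LOXL4 and RBMS3 were nearest to PLAUR, and APCDD1L (0.133), ADAMTS9 and MSN to PLAT. LARP6 (0.0618), DOCK4 and CD14 were nearest to SERPINE2, and ADAMTS1 (0.396), CDH4 and SCG5 to SERPINB2. For ANXA2 they were ANXA2P3 (0.0226), MOK and ANXA2P2 (0.0362), of which ANXA2P2 is its closest copy in sequence. With the 11 libraries in place of the 4 condition means, 1 of the 3 genes stayed for each member except PLAU, which kept 2. The measure takes in the difference between the lines, and the prior count weighs on genes with few T47D reads. A near gene can thus respond less to the peptide: APCDD1L, ADAMTS9 and MSN rose by 0.75, 0.49 and 0.52 in MDA-MB-231, against 1.11 for PLAT.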

How the data were processed

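Reads of 51 bases from poly(A) libraries were aligned by the authors to hg19 and counted per gene. The submitters' processing notes name FastQC, Trim Galore 0.4.4, TopHat2 2.1.0, SAMtools 1.4, bedtools 2.17, HTSeq 0.6.1p1 and edgeR 3.16.5. Neither the annotation nor the strand setting of HTSeq is given in the sources used here. The deposited table holds counts, which are not normalized, and RPKM values that the authors scaled by gene length and a library total. The RPKM values served only to read those totals. Gene positions and lengths were read from the same table.

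Of 24656 entries, 1288 repeated a symbol, and the entry with the highest count was kept. Counts were present for 11 of 12 samples, with 14338238 to 18452145 reads each. Counts were analysed in R 4.3.3 with edgeR 4.0.16 (TMM, filterByExpr, quasi-likelihood test, Benjamini-Hochberg adjustment over all genes tested), with DESeq2 1.42.0 and limma 3.58.1 (voom) as alternatives. Each line was fitted alone for the peptides, and all 4 groups together for the lines and their interaction. Calls needed an adjusted p below 0.05, and for some counts also a change over 2-fold. The spread between replicates was a biological coefficient of variation of 0.0933 for MDA-MB-231 and 0.0975 for T47D. Log2 CPM values have a prior count of 2. On simulated counts, the test recovered 198 of 198 changed genes among 13997 in MDA-MB-231 and 192 of 194 among 13636 in T47D, with 1 false call each. For the interaction it recovered 186 of 200 among 15165, with 5 false calls and 199 of 200 in the right direction. Recovery was counted over all changed genes together. How well small fold changes or genes with few reads are recovered was not tested.

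The members and lists were chosen with earlier results of these data known. A gene of the inhibitor list is not reported here. From each list the genes past the test were named, at most the 4 of largest change, with S100A10, LRP1 and the ANXA2 pseudogenes always. Also named were the 3 genes nearest in pattern to each member, above an average log2 CPM of 2, genes overlapping a member, and VIM, CDH1 and ESR1. Transcript sequences were from GENCODE on GRCh37 and promoters from RefSeq on GRCh38.p14.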

Additional observations from a re-analysis of the deposited data

Results flagged for a closer look

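The response to the peptide differed between the cell lines, by the interaction term of edgeR's quasi-likelihood test over all genes, for 3 members. For PLAU the response in MDA-MB-231 exceeded that in T47D by 1.79 on the log2 scale (SE 0.31, adjusted p = 4.652e-04), for PLAT by 1.73 (SE 0.28, adjusted p = 2.596e-04) and for ANXA2 by 0.86 (SE 0.11, adjusted p = 2.968e-05). In T47D, PLAU and PLAT rested on 11 to 27 reads per library, and ANXA2 on 2833 to 3795. The part that counting at such low levels plays in the difference for PLAU and PLAT was not tested. Summed with its 3 pseudogenes, ANXA2 gave a difference of 0.84 (SE 0.11, adjusted p = 2.757e-05).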

How the results depend on the processing

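Of 404 member values with an adjusted p under the alternatives, 384 kept their direction and their side of an adjusted p of 0.05, 6 lost the call, 8 gained it and 6 changed sign. DESeq2 gave no adjusted p for 4 members in T47D. With the 2-fold threshold inside the test, the count of members whose response differed between the lines went from 2 to 0 (adjusted p of 0.15 for PLAU and 0.147 for PLAT), and PLAT in MDA-MB-231 lost its call (adjusted p = 0.693). ANXA2, under 2-fold throughout, lost its calls in MDA-MB-231, between the lines and in the interaction (adjusted p = 1). This threshold asks for more than 2-fold and not for any change. In T47D, where neither was called, PLAU and PLAUR turned to 0.24 and 0.12 on the log2 scale under voom with quality weights, and the cause was not tested. With each library left out in turn, PLAU there ranged from -0.2167 to 0.1218 and PLAUR from -0.5192 to 0.01928. PLAUR in MDA-MB-231 passed with DESeq2 (adjusted p = 0.049), voom (0.00846) and without GFOGER replicate 3 (0.00179), and SERPINE2 with voom (0.0233) and without the same library (0.0212). SERPINB2 passed the interaction with voom (0.00743) and with no other alternative run. The range over all alternatives was 0.20 to 0.26 for PLAUR and -0.29 to -0.12 for SERPINE2 in MDA-MB-231, with adjusted p from 6.92e-04 to 1 and from 0.0168 to 1.

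The replicate numbers showed no pairing of the libraries: the deviations of same-numbered libraries correlated across genes between -0.184 and 0.0429. With the replicate block, PLAUR (0.20, adjusted p = 6.92e-04) and SERPINE2 (-0.18, adjusted p = 0.0168) passed in MDA-MB-231, which made 6 members at any fold in place of 4, and no other member changed its call. GFOGER replicate 3 has no IKVAV partner, and leaving it out gave 6 members and a PLAU change of 1.66, as with the block (1.66), so the block and the loss of that library cannot be told apart here. The library totals behind the RPKM values fell into a set of 5191201 to 5774966 and a set of 19898878 to 22840524. In the fits of all 11 libraries, a term for these sets changed no member's call. In MDA-MB-231 only IKVAV replicate 1 was in the low set, so the term cannot be told apart from leaving that library out. PLAU was 1.811 on the log2 scale with the term and 1.815 without that library. In T47D the low set held every GFOGER library and IKVAV replicate 3, so the term leaves that library alone to compare with GFOGER.

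Over all genes, the number past 2-fold in MDA-MB-231 was 1349, and ranged from 403 with the threshold inside the test to 1609 with voom. In T47D it was 3, from 0 to 146 with voom, between the lines 7092, from 4091 with at least 10 counts in every library to 8123 without a filter, and for the interaction 983, from 132 to 1434. Depth limits PLAU, PLAT, PLAUR and SERPINB2 in T47D.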
